A study of Saccharomyces cerevisiae with 34 samples.

Results

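The cytosolic ribosomal protein genes of budding yeast were followed through endoplasmic reticulum (ER) stress at the level of mRNA, of ribosome footprints and of the ratio between them. The members were all genes named RPL or RPS with a number, with or without a copy letter, together with the lateral stalk genes RPP0, RPP1A, RPP1B, RPP2A and RPP2B. RPL22A and RPL22B were left out. This gave 135 of the 6679 genes in each table: 74 of the large subunit, 56 of the small subunit and 5 of the stalk. Of these, 116 form 58 pairs of A and B copies and 19 are single genes, so that the list stands for 77 proteins.

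All strains were of the SK1 background of Saccharomyces cerevisiae and were grown in rich medium at 30 °C. Every condition had a library of mRNA and one of footprints, the mRNA pieces that ribosomes shield from nuclease. In the deletion experiment, wild-type (WT) cells and cells with HAC1 deleted received no agent, 5 mM dithiothreitol (DTT, a reductant that undoes disulfide bonds in the ER) or 2 µg/mL tunicamycin (Tm, an inhibitor of N-glycosylation), with 1 library per strain, treatment and molecule, 12 in all. In the auxin experiment, cells without or with TIR, the plant F-box protein that lets auxin trigger the breakdown of a tagged protein, received 500 µM auxin and 4 µM IP6 or the vehicle of both for 15 min, then 5 mM DTT or nothing more, and were taken at 1 h or 2 h, 22 libraries in all. TIR cells with auxin are called depleted and no-TIR cells with auxin retained, since the series' design states depletion of Hac1, although the labels do not describe the tag. The vehicle cultures all received DTT, and the no-TIR cells with auxin alone have 1 library per molecule, at 1 h. The libraries of 1 h and 2 h served as the replicates of a group. Nothing says that they came from separate cultures, so p-values measure only the spread between these libraries, which may be technical.

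Ribosomal protein genes encode the proteins of the ribosome, and most exist as an A and a B copy with the same or nearly the same protein product, kept since an ancient duplication of the genome. They are among the most strongly transcribed genes of growing yeast, are switched on together through Rap1, Fhl1, Ifh1 and Sfp1 under the control of the TOR and PKA growth pathways, and are repressed as a group in many kinds of stress. Hac1 is the transcription factor of the unfolded protein response, made only once its mRNA has been spliced after misfolded protein builds up in the ER. The question the design poses for these genes is how far their mRNA and their translation moved with ER stress, and whether this differed when Hac1 was present, deleted or depleted.

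Depth, estimated from the steps between low values, was 10.2 to 32.3 M reads for mRNA and 6.45 to 36.5 M for footprints in the auxin experiment, where M is mega, and 16.0 to 19.0 M and 8.34 to 27.5 M in the deletion experiment. HAC1 mRNA was 2372, 5216 and 4325 RPKM (reads per kilobase of gene, corrected for library size) in untreated, DTT-treated and Tm-treated WT cells and 42.1, 5.43 and 17.7 RPKM in the deletion strain. Its mRNA cannot check the depletion of the protein. The titles were followed for the molecule of the 12 deletion libraries, since another label gives the opposite molecule. RPL41A and RPL41B, which encode the shortest protein of the set, were listed at 0 in every footprint library and had an estimated 0 to 20 and 1 to 53 mRNA reads in the auxin libraries, so 133 members have footprints and ratios. No source used here says how reads shared by near-identical copies were counted, so the split of a signal between an A and a B copy, and between RPL41A and RPL41B above all, is uncertain. The level and the ratio of such copies are uncertain for the same reason.

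The HAC1 deletion strain stood apart from WT beyond the deleted gene. Over all genes outside the list, its untreated mRNA exceeded that of WT by a median log2 difference of 0.76 on chromosome II and was lower by a median of −0.79 on chromosome VIII, while the medians of the other 14 chromosomes lay between 0.17 and 0.29. The same 2 chromosomes stood out with DTT (0.66 and −0.91) and with Tm (0.61 and −0.86). TIR and no-TIR cells showed no such pattern, with every chromosome within −0.03 to 0.03 in mRNA and footprints with auxin alone. Gene copy number was not measured, and the loss of HAC1 cannot be told apart from this strain difference in any comparison between the deletion strain and WT.

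Without stress, the 135 members took up a large part of everything measured per unit length, and with DTT that share was far smaller. In the auxin experiment their share of the summed mRNA RPKM was 36.9% to 37.6% in the 3 libraries without DTT, and in the 8 libraries with DTT it was 20.2% at the lowest, 22.4% at the median and 23.9% at the highest. For footprints the shares were 34.9% to 36.2% without DTT and 16.6%, 20.9% and 22.3% (lowest, median, highest) with it. The libraries with and without DTT did not overlap in either molecule. In the deletion experiment the members' mRNA share in WT was 42.5% untreated, 23.6% with DTT and 34.6% with Tm, and in the deletion strain it was 37.0%, 25.1% and 37.2% in the same order. Footprint shares in WT were 37.9%, 20.2% and 31.8%, and in the deletion strain 36.2%, 24.9% and 33.4%. The DTT library was the lowest of its strain in all 4 series, whereas the Tm library was below the untreated one in both molecules in WT and in footprints alone in the deletion strain.

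**Figure D1:**
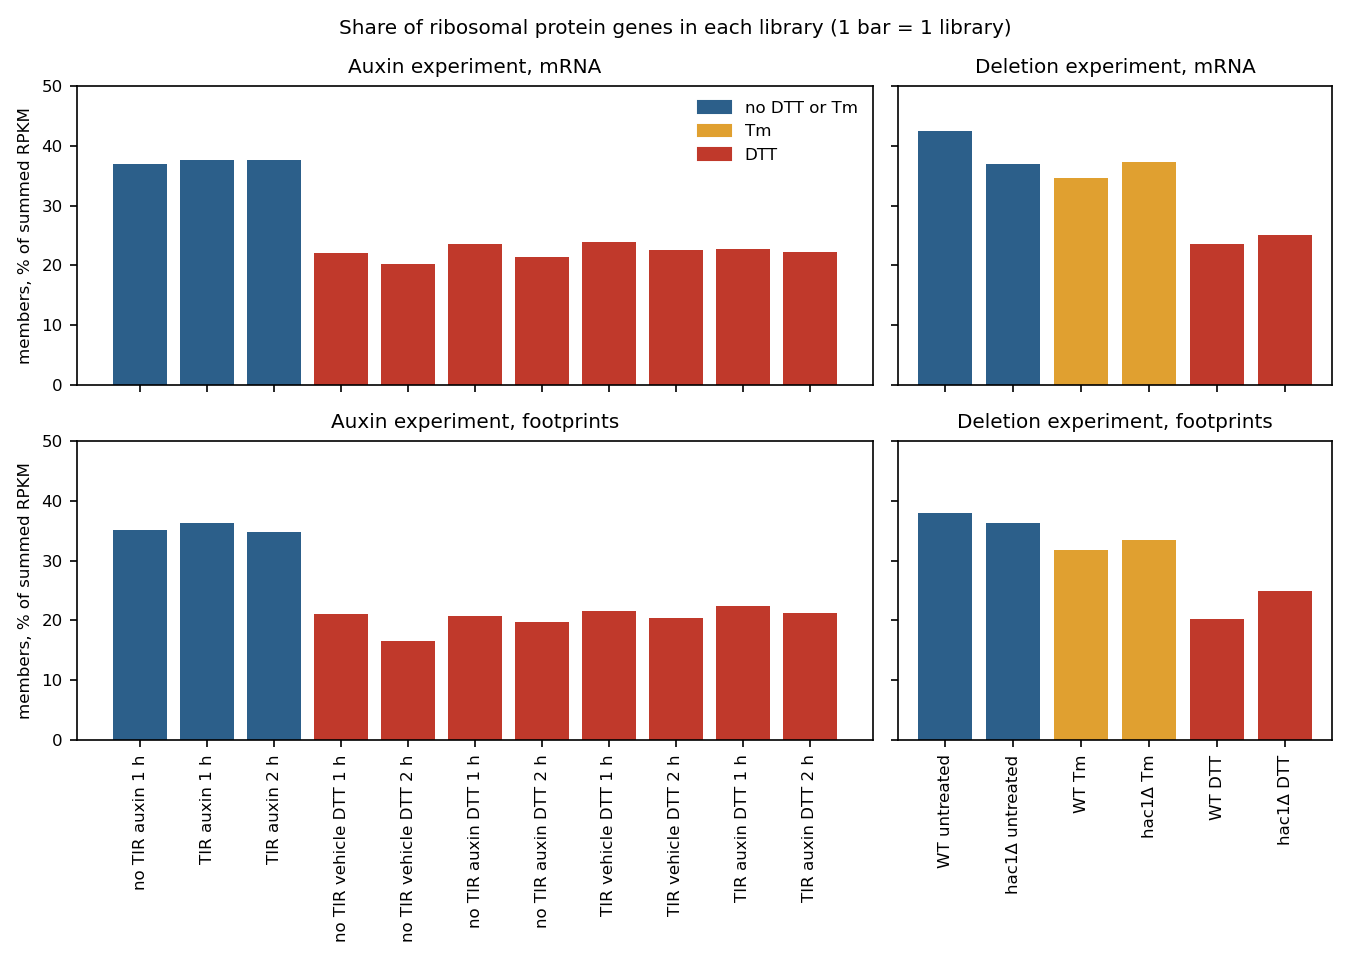
Bars give the share of the summed RPKM of each library taken by the ribosomal protein genes, in percent, for mRNA and footprints of both experiments, with blue for no stress agent, orange for Tm and red for DTT. Every red bar of the auxin experiment lies at or below 23.9%, and every blue one at or above 34.9%.

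Levels differed widely between members. Averaged over the 3 unstressed auxin libraries, the highest mRNA levels per length were those of RPS31 (70040 RPKM), which makes a small subunit protein fused to ubiquitin, RPS12 (60521 RPKM), RPL28 (34064 RPKM) and RPL10 (33502 RPKM), the last of which joins the large subunit late in its assembly. The lowest were RPL41A (70.0 RPKM), RPL41B (178 RPKM), RPL15B (250 RPKM) and RPL7B (522 RPKM). The low values of the RPL41 copies were not shared by the deletion experiment. There RPL41A ran from 467 to 3790 RPKM and RPL41B from 868 to 7122 RPKM. In the unstressed auxin libraries, footprints put RPL39 (30907 RPKM), RPL10 (27358 RPKM), RPL28 (26620 RPKM) and RPL29 (25763 RPKM) at the top. At the bottom of the footprints were RPL15B (307 RPKM), RPL35A (421 RPKM), RPL35B (479 RPKM) and RPL7B (530 RPKM). In the no-TIR library with auxin alone the median member had 9116 RPKM of mRNA, against 127 RPKM for the median of all genes.

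The ribosome holds 1 copy of most of its proteins, and levels were closer to each other in footprints than in mRNA once A and B copies were added up. Over the 76 proteins other than that of RPL41, the summed mRNA had a median of 19556 RPKM and quartiles of 12475 and 26767 RPKM, a ratio between the quartiles of 2.15. The summed footprints had a median of 19454 RPKM and quartiles of 15076 and 23674 RPKM, a ratio of 1.57. Untreated libraries of the deletion experiment gave 2.21 for mRNA and 1.33 for footprints. The proteins' mRNA ran from 2149.5 to 70040 RPKM and their footprints from 900.5 to 34118 RPKM, with RPL35, at the rim of the exit tunnel, the lowest in footprints. These values describe levels per length, and no test was made of them.

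The log2 ratio of footprints to mRNA (here, the ratio) had a median over members of −0.30 to 0.05 in the 11 auxin library pairs, above the median of all genes in each (−0.78 to −0.57). Averaged over libraries, the lowest members were RPL35A (−2.14), RPP2B (−1.61), RPL35B (−1.58) and RPS12 (−1.53), and RPS31, with the highest mRNA, stood at −1.36. The highest were RPS15 (1.64), RPL6B (1.58), RPS11A (1.32) and RPS29B (1.30). The lowest place of RPL35A was not shared by untreated WT cells of the deletion experiment. There RPL35A and RPL35B stood at −1.01 and −1.29, and RPS6A was the lowest at −1.82. The 2 members with the most mRNA were among those with the fewest footprints per mRNA, a ratio in which the same mRNA values are the divisor.

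DTT lowered nearly the whole list with Hac1 retained. In no-TIR cells with auxin, 129 of 135 members fell in mRNA (limma, adjusted p under 0.05), against 12% of all genes tested that fell, and 0 rose, against 28.6%. Their median log2 change was −0.82, against 0.24 for all genes. In footprints 130 of 133 fell, against 14.6% of all genes, with a median of −0.85 against 0.34. Of the large and small subunit genes 71 of 74 and 54 of 56 fell in mRNA, with medians of −0.82 and −0.81. The single-copy members followed suit with 18 of 19 lower. When the copies of a protein were summed first, 76 of 77 proteins fell in mRNA and 76 of 76 in footprints. Median-ratio scaling, which sets the median of all genes to about 0, moved the member medians to −1.07 in mRNA and −1.20 in footprints. This contrast rests on 1 control library of each molecule, taken at 1 h and assumed to vary like the others. Its values therefore also carry the fitted hour term that all groups share.

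Most of the list also fell when Hac1 was depleted. Here 126 of 135 members fell in mRNA, against 17.5% of all genes, and 132 of 133 fell in footprints, against 19.8%. In mRNA 0 rose, against 41.1% of all genes. The medians were −0.90 in mRNA (0.26 for all genes) and −0.78 in footprints (0.29 for all genes), or −1.16 and −1.09 with median-ratio scaling. Large subunit genes had an mRNA median of −0.84 with 70 of 74 lower, and small subunit genes −0.98 with 52 of 56 lower. Summed over copies, 74 of 77 proteins fell in mRNA and 76 of 76 in footprints.

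A typical member was RPL10 (YLR075W). Its mRNA was 31939.9, 33267 and 35298 RPKM without DTT (no-TIR at 1 h, then TIR at 1 h and 2 h) and 16412, 17978 and 19144 RPKM (lowest, median, highest) in the 8 libraries with DTT. The 2 sets did not overlap, and RPL10 mRNA fell by 0.81 ± 0.14 with Hac1 retained (adjusted p = 0.0012, limma) and by 0.99 ± 0.11 with it depleted (adjusted p = 3.4e-05). RPS31 (YLR167W) mRNA stood at 67102, 66442 and 76576 RPKM without DTT and at 21546, 29026 and 33958 RPKM (lowest, median, highest) with it. Its log2 change was −1.17 in mRNA and −0.91 in footprints with Hac1 retained, and −1.52 and −1.01 with Hac1 depleted, all past the threshold.

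**Figure D2:**
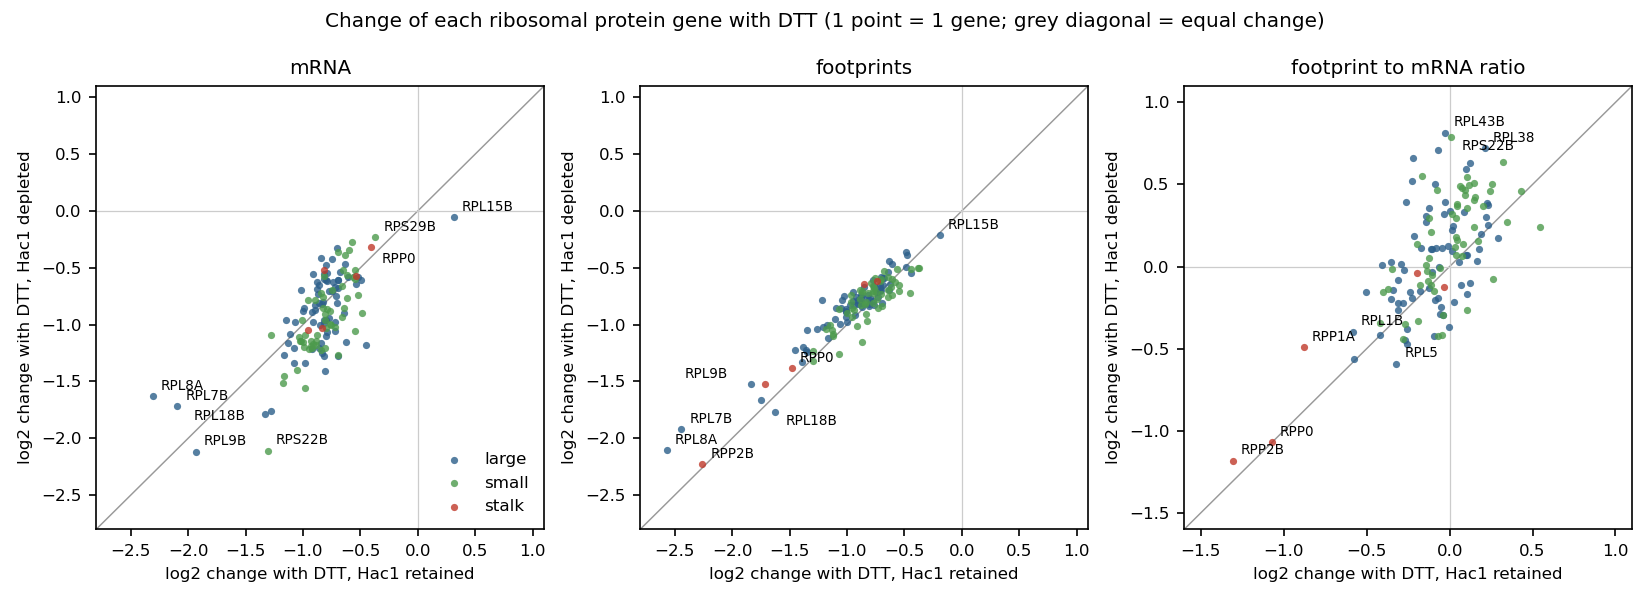
Each point is 1 ribosomal protein gene, with its log2 change with DTT when Hac1 was retained on the horizontal axis and when it was depleted on the vertical axis, in panels for mRNA, footprints and their ratio. Nearly all points of the first 2 panels lie below 0 on both axes, the grey diagonal marks equal changes, colours mark large subunit, small subunit and stalk, and RPL41A and RPL41B are left out.

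RPL8A, RPL7B and RPL9B, single copies of large subunit pairs, were among the members that fell most in mRNA in both responses. RPL8A (YHL033C) mRNA was 3164, 2767 and 2378 RPKM without DTT and 524, 811 and 1018 RPKM (lowest, median, highest) with it. The sets were far apart, and RPL8A fell to 20.2% of the control level with Hac1 retained (−2.31 ± 0.29, adjusted p = 0.00012, limma) and to 32.2% with it depleted (−1.63 ± 0.23, adjusted p = 0.00012). RPL7B (YPL198W) fell by 2.09 ± 0.28 (adjusted p = 0.0002) and 1.72 ± 0.22, and RPL9B (YNL067W) by 1.94 ± 0.25 (adjusted p = 0.00016) and 2.12 ± 0.20 (adjusted p = 8.6e-06). RPS22B, RPL18B and RPL9A were at −1.31, −1.33 and −1.28 with Hac1 retained and at −2.11, −1.79 and −1.76 with it depleted, where all 3 were lower than RPL7B and RPL8A. The retained values of RPL8A, RPL7B and RPL9B depend on the shared hour term, since their control was taken at 1 h only. Whether they differ in size from the depleted values is thus not settled. RPL41A (−5.13 ± 1.84, adjusted p = 0.044) and RPL41B (−3.66 ± 1.30, adjusted p = 0.042) were called with Hac1 retained on a handful of reads each. Their values with Hac1 depleted were 2.68 (adjusted p = 0.13) and 0.37 (adjusted p = 0.77).

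The members that did not pass the threshold with Hac1 retained included RPL15B (YMR121C), RPS29B, RPP0 and RPL43B, at 0.31, −0.37, −0.41 and −0.46 in mRNA (adjusted p = 0.16, 0.15, 0.18 and 0.13). RPL15B mRNA was 238, 273 and 238 RPKM without DTT and 245, 292 and 310 RPKM (lowest, median, highest) with it, and the sets overlapped. It was also the member with the smallest change in footprints, at −0.19 ± 0.17 (adjusted p = 0.34) with Hac1 retained and −0.21 ± 0.13 (adjusted p = 0.18) with it depleted. RPS28A (−0.37), RPS10B (−0.38) and RPL26A (−0.44) had the smallest footprint changes among those that fell with Hac1 retained. With Hac1 depleted these were RPL43B (−0.36), RPL14B (−0.38) and RPL38 (−0.44).

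Members known for other roles moved with the rest, and each value here is the log2 change with Hac1 retained, in mRNA and then in footprints. The ubiquitin fusions RPL40A and RPL40B fell by 0.91 and 0.69, and by 1.0 and 0.71. RPL30, whose protein represses the splicing of its own transcript, fell by 1.08 and 1.35. RPL3, of the peptidyl transferase region, fell by 1.07 and 1.38, and RPS3, near the entry of the mRNA, by 0.93 and 1.13. RPL25, the docking protein of the signal recognition particle, fell by 0.83 and 0.89, while RPL39 and RPL29 fell by 0.89 and 0.80, and by 0.77 and 0.77. RPS6A and RPS6B, the phosphorylated small subunit protein, fell by 1.16 and 0.84, and by 0.92 and 0.87. RPS26A, which meets the mRNA at its exit, fell by 0.57 and 0.64 here and had −0.27 in mRNA with Hac1 depleted, which did not pass the threshold (adjusted p = 0.10).

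In mRNA and footprints alike most of the list fell, and the members with the deepest falls in the ratio were RPP2B and RPP0 of the lateral stalk. The stalk is a flexible arm of the large subunit that recruits elongation factors, with RPP0 at its base and the P1 and P2 proteins along it, where in yeast the products of RPP1A and RPP2B pair with each other and those of RPP1B and RPP2A do so too. With Hac1 retained, 3 of 133 members fell in ratio, against 1.46% of all genes, and the 3 were RPP2B, RPP0 and RPP1A. With Hac1 depleted, 9 fell, against 6.76% of all genes, and RPP2B and RPP0 were again the lowest. Both counts lay near the share of all genes, so they do not set the list apart. All 5 stalk genes fell in footprints in both responses. Their medians of −1.48 and −1.38 were the values of RPP0 itself, against −0.88 and −0.79 for the large subunit genes. RPP2A fell less than RPP2B and RPP1B less than RPP1A, so these medians do not describe all 5.

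RPP2B (YDR382W) had 16007, 15766 and 13122 RPKM of footprints without DTT and 2799, 3159 and 3403 RPKM (lowest, median, highest) with it. Its mRNA went from 24722, 24410.2 and 25263 RPKM to 10972, 11593 and 13511 RPKM in the same sets. No library with DTT reached one without it in either molecule, and the gap was wider in footprints. The footprints fell by 2.26 ± 0.13 with Hac1 retained (adjusted p = 1.2e-05, limma) and fell by 2.23 ± 0.10 with it depleted (adjusted p = 2.5e-06), and the mRNA by 0.95 ± 0.15 and 1.04 ± 0.12. Its log2 ratio was −0.63, −0.63 and −0.95 without DTT and −2.11, −1.94 and −1.75 (lowest, median, highest) with it. The ratio fell by 1.31 ± 0.20 (adjusted p = 0.00064) and 1.18 ± 0.15 (adjusted p = 7.9e-05).

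RPP0 (YLR340W) had the opposite starting point, with the most footprints per mRNA of the stalk genes. Its footprints went from 19925, 19475 and 19216 RPKM to 5625, 6899 and 7973 RPKM (lowest, median, highest) with DTT, and fell by 1.48 ± 0.12 (adjusted p = 4.6e-05) and 1.38 ± 0.10 (adjusted p = 1.3e-05). Its mRNA was 5205, 6476 and 6057 RPKM without DTT and 2977, 3778 and 6222 RPKM (lowest, median, highest) with it. The mRNA sets overlapped, through the depleted library with DTT at 1 h, and the changes of −0.41 (adjusted p = 0.18) and −0.31 (adjusted p = 0.16) did not pass the threshold. The RPP0 ratio fell by 1.07 ± 0.21 with Hac1 retained (adjusted p = 0.0069) and by 1.07 ± 0.17 with it depleted (adjusted p = 0.00043). The ratio calls of RPP2B and RPP0 held under each alternative run.

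RPP1A (YDL081C), the partner of RPP2B, followed it. Its log2 ratio was −0.60, −0.59 and −0.92 without DTT and −1.66, −1.41 and −1.22 (lowest, median, highest) with it, and the sets did not overlap. The fall was 0.88 ± 0.20 with Hac1 retained (adjusted p = 0.016) and 0.49 ± 0.16 with it depleted (adjusted p = 0.034). These calls depend on single libraries: without the retained DTT library at 1 h the first was −0.61 (adjusted p = 0.127), and without the depleted library at 1 h with auxin alone the second was −0.34 (adjusted p = 0.286). Without the depleted 2 h library with auxin alone the second was −0.64 (adjusted p = 0.074), and without the depleted DTT library at 1 h it was −0.41 (adjusted p = 0.297). With no filter on low values the adjusted p was 0.0503 and 0.064, and without trend the second was 0.060.

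The other stalk pair did not pass the threshold in ratio. RPP1B (YDL130W) had changes of −0.20 ± 0.20 (adjusted p = 0.68) with Hac1 retained and −0.04 ± 0.16 (adjusted p = 0.88) with it depleted, and RPP2A (YOL039W) −0.03 ± 0.22 (adjusted p = 0.95) and −0.13 ± 0.17 (adjusted p = 0.62). The RPP2B ratio was lower than that of RPP2A by a further 1.28 ± 0.25 with DTT (A to B ratio, Hac1 retained, adjusted p = 0.0069) and by 1.06 ± 0.20 with Hac1 depleted (adjusted p = 0.002). For RPP1 the corresponding differences were −0.68 (adjusted p = 0.095) and −0.45 (adjusted p = 0.061), neither past the threshold.

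A second split between copies was that of RPL1, the protein of a mobile arm at the exit side of the large subunit. RPL1B (YGL135W) footprints went from 3501, 3224 and 3910 RPKM to 841, 1043 and 1261 RPKM (lowest, median, highest) with DTT and fell by 1.75 ± 0.10 (adjusted p = 1.3e-05) and 1.66 ± 0.08 (adjusted p = 3e-06). RPL1A (YPL220W) footprints were 3283, 3016 and 3984 RPKM without DTT and 1269, 1943 and 2472 RPKM (lowest, median, highest) with it, with changes of −0.63 (adjusted p = 0.097) and −0.70 (adjusted p = 0.028). The A to B ratio of their footprints per mRNA rose by 0.80 ± 0.22 (adjusted p = 0.048) and 0.70 ± 0.17 (adjusted p = 0.0097). Its log2 values were 0.75, 0.67 and 0.91 without DTT. With DTT they were 1.59, 1.71, 1.64 and 1.62 at 1 h but 1.11, 1.11, 1.31 and 1.36 at 2 h (no-TIR with vehicle and with auxin, then TIR with each). The fitted hour term (−0.29) enters the retained shift, whose control was taken at 1 h only.

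**Figure D3:**
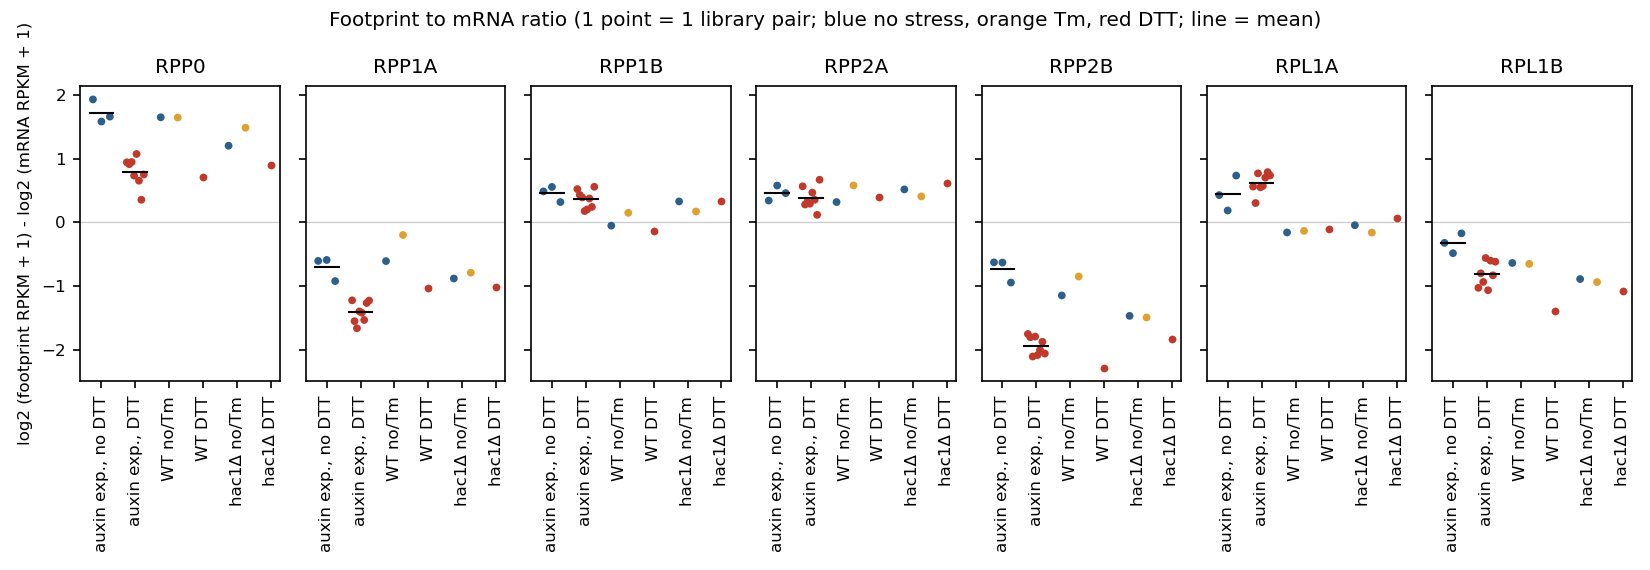
Points give the log2 ratio of footprints to mRNA in each library pair for the 5 stalk genes and for RPL1A and RPL1B, in sets by experiment, strain and treatment, with a line at the mean where a set has more than 2 points. RPP0, RPP1A, RPP2B and RPL1B sit lower with DTT than without it in the auxin experiment, and RPP1B, RPP2A and RPL1A do not separate.

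With Hac1 depleted, 21 members also rose in ratio, against 14.4% of all genes, so the members' share of calls was close to the background. The highest were RPL43B (0.82 ± 0.19, adjusted p = 0.0067, limma), RPS22B (0.79 ± 0.16, adjusted p = 0.0037), RPL38 (0.72 ± 0.14, adjusted p = 0.0029) and RPL9A (0.71 ± 0.15, adjusted p = 0.0045). RPL38 ratios were −0.19, −0.16 and −0.49 without DTT, 0.62 and 0.18 in the depleted DTT libraries at 1 h and 2 h, and between −0.28 and 0.08 in the other 6 with DTT. The depleted DTT library at 1 h held the lowest mRNA of RPS31, RPS22B, RPL43B and RPL38 and the highest of RPP0, RPL5 and RPL8B among the 8 libraries with DTT. Without it, 2 of 133 members were called in ratio in place of 30, and RPL38, RPS22B and RPL43B had adjusted p = 0.093, 0.090 and 0.173. Leaving out the depleted library with auxin alone gave 11 calls for that of 1 h and 4 for that of 2 h. RPL5 (−0.59 ± 0.14, adjusted p = 0.0086), which carries the smallest ribosomal RNA of the large subunit into it, and RPL4A (−0.56 ± 0.16, adjusted p = 0.02), which lines the exit tunnel, were among the members that fell in ratio.

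Depleted and retained cells were compared directly under DTT, and at most 1 ribosomal protein gene was called in mRNA, footprints or the ratio. In mRNA 0 of 135 members were called by limma, against 6.08% of all genes, and 6 had an unadjusted p under 0.05. The 133 members other than RPL41A and RPL41B ranged from −0.41 (RPS22B) to 0.43 (RPP0), with a median of −0.04. In footprints 1 of 133 was called higher, against 3.82% of all genes: RPL38 (YLR325C), at 0.39 ± 0.08 (adjusted p = 0.026). RPL38 had 19354 and 17434 RPKM of footprints in depleted cells and 15352 and 12748 RPKM in retained cells at 1 h and 2 h, so the 2 groups did not overlap, but the call was lost without any 1 of these 4 libraries, and without either TIR library with vehicle and DTT. In the ratio 0 were called, against 0.357% of all genes, with 22 at an unadjusted p under 0.05 and a median of 0.18. Most members lay above 0 in footprints and in the ratio. Calls of single genes do not address such a shared lean, which was not tested.

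The remaining auxin comparisons gave no call among the 135 members in mRNA. Auxin against vehicle under DTT gave 0 in TIR cells, against 5.99% of all genes, with 30 at an unadjusted p under 0.05 by limma, and 0 in no-TIR cells, against 0% of all genes, with 2. Depleted against retained cells without DTT gave 0, against 0% of all genes, with 2 at an unadjusted p under 0.05. The difference between the 2 DTT responses gave 0, against 1.06% of all genes, with 8 at an unadjusted p under 0.05 and a range of −0.80 to 0.68 over the 133 members other than RPL41A and RPL41B. These comparisons share libraries with each other and with the DTT responses.

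Between 1 h and 2 h few members changed in mRNA, and those were single copies of a pair. In mRNA 2 of 135 were called over the groups, against 7.05% of all genes: RPS9A (YPL081W), whose protein bears on the accuracy of decoding, fell by 0.66 ± 0.11 (adjusted p = 0.021, limma), and RPL9B rose by 0.60 ± 0.13 (adjusted p = 0.026). In footprints 24 fell, against 9.97% of all genes, and 3 rose, against 14.5%. RPS9A (−0.65), RPL13A (−0.40), RPS20 (−0.39) and RPS21A (−0.35) were the lowest, and RPL7B (0.74), RPL9B (0.57) and RPL1B (0.27) were the 3 that rose. The ratio had 0 calls, against 0.0938% of all genes, with 5 at an unadjusted p under 0.05. Leaving out any 1 of the 8 libraries with DTT ended all calls in footprints, and left 0 or 1 in mRNA.

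The group without DTT at both hours did not move with the others. With the 4 DTT groups alone, a choice made after the values were seen, more members were called. In mRNA 6 were called, against 15.6% of all genes, with RPS9A (−0.80), RPS26B (−0.44) and RPS21A (−0.33) lower and RPL9B (0.73), RPL7B (0.70) and RPL8A (0.55) higher at 2 h. In footprints 45 fell, against 23.6% of all genes, and 5 rose, against 21.5%, the 5 being RPL7B (0.97), RPL9B (0.72), RPL8A (0.56), RPL4A (0.28) and RPL1B (0.27). RPL7B, RPL8A and RPL9B, among the members that DTT lowered most, were thus higher at 2 h than at 1 h. RPL7B mRNA with DTT was 110, 122, 123 and 125 RPKM in the 4 libraries of 1 h and 179.6, 198, 201 and 206 RPKM in those of 2 h.

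The A and B copies of a protein often stood at unequal levels. The most unequal pairs in mRNA were RPL15 (mean log2 ratio of A to B 5.66), RPL7 (3.45), RPS9 (−3.23) and RPL18 (2.68), and the most equal were RPS30 (0.03) and RPL43 (0.05). With DTT and Hac1 retained, 4 of 58 pairs shifted in mRNA (limma, adjusted together with all genes): RPL15 by −1.30 ± 0.20 (adjusted p = 0.00054), RPL8 by −1.40 ± 0.29 (adjusted p = 0.0029), RPL7 by 0.95 ± 0.24 (adjusted p = 0.0091) and RPS29 by −0.45 ± 0.17 (adjusted p = 0.05). With Hac1 depleted 20 pairs shifted, 10 towards each copy, among them RPL15 (−1.28), RPL8 (−1.08), RPL7 (0.76) and RPS22 (0.71). The smallest shifts were those of RPL12 and RPL31 (0.01 and 0.02) with Hac1 retained and RPL36 and RPS18 (−0.01 and 0.02) with it depleted. Leaving out the depleted DTT library at 1 h brought the 20 to 7, and leaving out the depleted 2 h library with auxin alone brought them to 8.

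In the RPL8 pair the A copy lost ground. The log2 ratio of RPL8A to RPL8B mRNA was −0.80, −0.86 and −0.89 without DTT. At 1 h with DTT it was −2.30, −2.42, −2.21 and −2.24 (no-TIR with vehicle and with auxin, then TIR with each), and at 2 h −1.25, −1.35, −1.67 and −1.67. All 8 libraries with DTT were below all 3 without it, and those of 1 h were below those of 2 h. In RPL7 the B copy lost ground: the ratio of A to B was 2.96, 2.97 and 2.89 without DTT, 4.12, 3.91, 3.99 and 4.07 at 1 h, and 3.13, 3.26, 3.30 and 3.30 at 2 h. Here too the libraries with DTT lay apart from the others, and those of 1 h apart from those of 2 h. The fitted hour term (0.64 for RPL8 and −0.64 for RPL7) enters the retained shifts of both pairs, whose control was taken at 1 h only. The unstressed TIR libraries of 1 h and 2 h differed little, at −0.86 and −0.89 for RPL8 and 2.97 and 2.89 for RPL7. Whether the retained shifts are larger than the depleted ones is thus not settled.

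For RPL15, whose B copy was nearly unmoved by DTT, the ratio of A to B mRNA was 6.52, 6.47 and 6.78 without DTT and lay between 5.10 and 5.45 in the 8 libraries with it. RPS9 separated by hour. Its ratio was −2.97, −3.07 and −3.17 without DTT, −2.94, −2.99, −3.08 and −2.74 at 1 h with DTT and −3.69, −3.59, −3.71 and −3.61 at 2 h with DTT, so the 1 h values overlapped the unstressed ones and the 2 h values did not. RPL9 gave the least even picture, at 1.84, 2.02 and 2.06 without DTT, 2.62, 2.70, 2.81 and 2.64 at 1 h, and at 2 h 1.33 and 1.63 in no-TIR cells but 2.25 and 2.17 in TIR cells. Between 2 h and 1 h, 6 of 58 pairs shifted in mRNA, namely RPS9, RPL7, RPL8, RPL9, RPS26 and RPL27. The count was 0 without a filter on low values and 2 without trend, 0 without any 1 of the 4 TIR libraries with DTT or the 2 no-TIR libraries with vehicle and DTT, and 2 without either retained DTT library.

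In footprints 14 of 57 pairs shifted with Hac1 retained and 20 with it depleted. The RPP2 pair moved towards the A copy by 1.41 and 1.58 and the RPP1 pair towards the B copy by 0.98 and 0.91 (log2 ratios of −0.98 and −0.91), so that the pair of partners RPP1B and RPP2A gained on RPP1A and RPP2B. RPL15 (−1.20 and −1.11) and RPL8 (−1.57 and −1.13) moved as in mRNA. In the ratio of footprints to mRNA, 2 pairs shifted with Hac1 retained, RPP2 and RPL1, and 8 with it depleted. Between depleted and retained cells under DTT, 0 pairs shifted in mRNA, with 4 at an unadjusted p under 0.05, and 1 in footprints, RPL18 (0.42, adjusted p = 0.046).

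**Figure D4:**
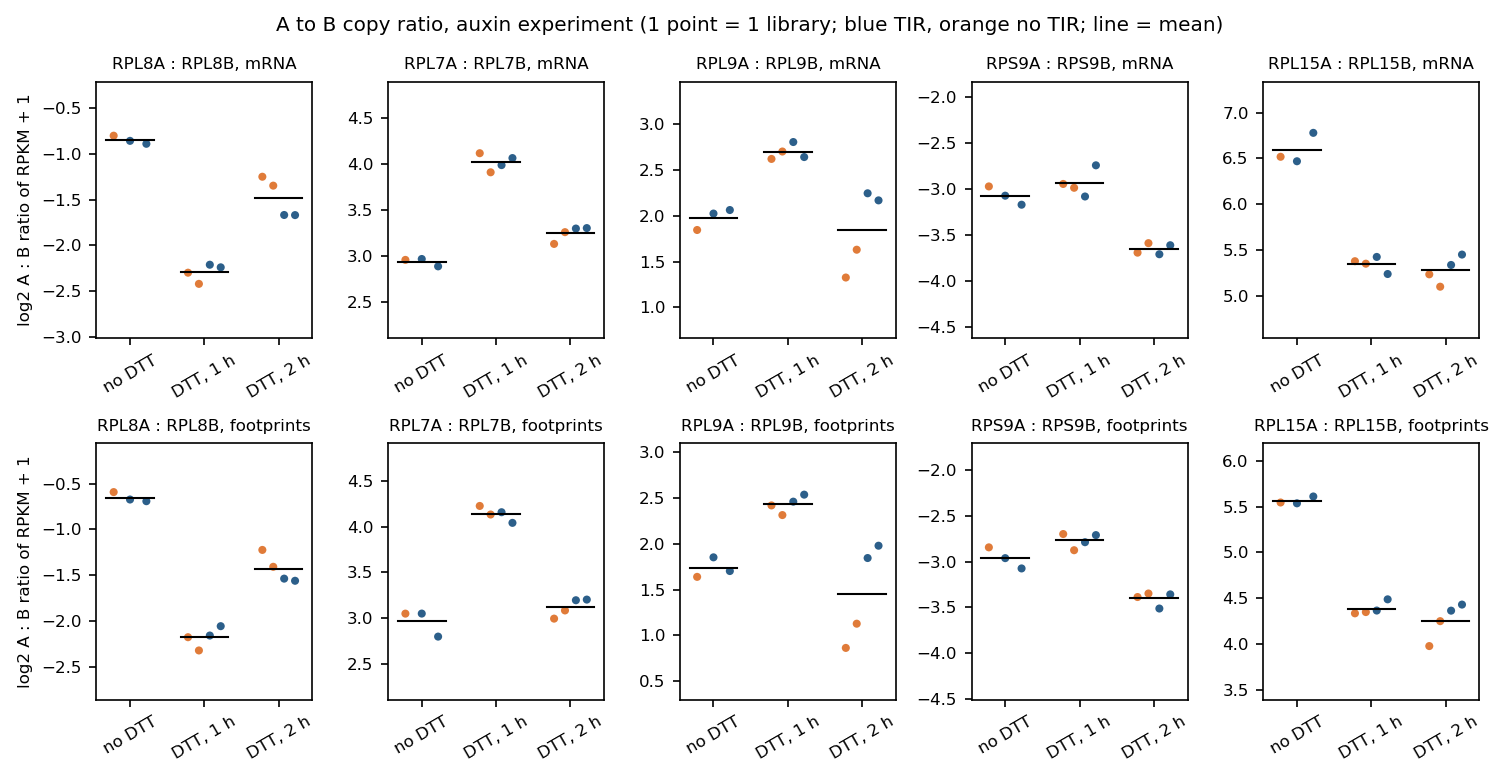
Points give the log2 ratio of the A to the B copy in each library of the auxin experiment, for mRNA and footprints of RPL8, RPL7, RPL9, RPS9 and RPL15, in 3 sets (no DTT, DTT at 1 h, DTT at 2 h), with blue for TIR and orange for no-TIR cells and each panel spanning the same height. The RPL8 and RPL7 points of 1 h lie farthest from the unstressed ones, and those of RPS9 separate at 2 h.

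The deletion experiment gave DTT to other cells and added Tm, and no time of treatment is given for its libraries. It had 1 library per group, so its differences have no replicate check and members are counted past 1.5-fold. In WT cells with DTT 131 of 135 members were lower in mRNA, against 14.9% of all genes, with a median log2 difference of −1.04 (0.30 for all genes). In footprints 132 of 133 were lower, against 15.2%, with a median of −1.08. RPL8A (−2.69), RPL9B (−2.35), RPL7B (−2.01) and RPS22B (−1.92) were the lowest in mRNA, and RPL41B (0.30) and RPL15B (0.12) the only members above 0. In footprints RPL8A (−2.88), RPP2B (−2.44), RPL7B (−2.26) and RPL9B (−2.07) led. The ratio was lower in 3 of 133, against 2.29% of all genes, and the 3 were RPP2B (−1.14), RPP0 (−0.94) and RPL1B (−0.76).

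In deletion cells with DTT 92 of 135 members were lower in mRNA, against 12.9% of all genes, and 108 of 133 in footprints, against 13.7%. The medians were −0.67 and −0.70, smaller in size than those of WT, a difference that 1 library per group cannot test. RPL8A (−1.28), RPL9A (−1.21), RPS12 (−1.08) and RPP2B (−1.0) were the lowest in mRNA, and RPL8A (−1.68) and RPP2B (−1.37) in footprints. In the ratio 0 members were past 1.5-fold, against 4.62% of all genes. The lowest were RPL7B (−0.48), RPL8A (−0.40), RPP2B (−0.37) and RPP0 (−0.30).

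Stalk ratios in these libraries were lowest with DTT in both strains for RPP2B, RPP0 and RPP1A. The log2 ratio of RPP2B was −1.15 untreated, −2.29 with DTT and −0.85 with Tm in WT, and −1.47, −1.83 and −1.49 in the deletion strain. RPP0 stood at 1.66, 0.71 and 1.65 in WT and at 1.21, 0.90 and 1.49 in the deletion strain. RPP1A stood at −0.61, −1.04 and −0.20 in WT and at −0.88, −1.01 and −0.79 in the deletion strain. For each of these 3 the drop from untreated was smaller in the deletion strain, a difference that 1 library per group cannot test. RPL1B was −0.64, −1.39 and −0.65 in WT and −0.89, −1.08 and −0.94 in the deletion strain, against −0.16, −0.10 and −0.13, then −0.04, 0.07 and −0.16, for RPL1A.

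With Tm fewer members passed 1.5-fold than with DTT. In WT cells 10 of 135 members were lower in mRNA, against 10.2% of all genes, and the median was −0.38 (0.15 for all genes). Another 2 were higher, for which no share of all genes is given. Median-ratio scaling, with all genes near 0, gave 54 lower and 2 higher and a median of −0.55. The lowest were RPL35B (−0.97), RPL35A (−0.82), RPS9A (−0.77) and RPL18B (−0.74), and RPL41A (1.19) and RPL41B (1.09) were the 2 that were higher. In footprints 2 of 133 were past 1.5-fold in either direction, RPS9A (−0.60) lower and RPL15B (0.63) higher, against 33.1% of all genes, and the member median was −0.33. Scaling gave 12 lower and 0 higher, with a median of −0.47. The shares of all genes given for mRNA and footprints are of unscaled values and are no background for the scaled counts. The ratio was higher in 2 members, RPL35A (0.80) and RPL35B (0.59), against 2.42% of all genes.

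In deletion cells the mRNA of the list stayed near its untreated level with Tm. In mRNA 2 of 135 members were higher, against 1.88% of all genes, both of them RPL41 copies (2.91 and 3.04), and the median was 0.05 (0.04 for all genes). In footprints 0 members were past 1.5-fold in either direction, against 3.12% of all genes, with a median of −0.15, and in the ratio 0, against 2.63%, with a median of −0.18.

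Untreated deletion cells differed from untreated WT cells most in single B or A copies, which make up 116 of the 135 members. In mRNA 16 of 135 members were lower, against 8.85% of all genes, and 1 was higher, with a median of −0.27 (0.21 for all genes). Median-ratio scaling gave 36 lower and 0 higher, with a median of −0.48. The 8.85% is of unscaled values and is no background for this count. In footprints 14 of 133 were lower, against 9.54%, and 3 were higher. No share of all genes is given for the 1 and the 3 that were higher. In the ratio 2 were past 1.5-fold in either direction, RPS9A (−1.05) and RPL29 (0.61), against 5.35% of all genes. With the members on chromosomes II and VIII left out, 9 remained past 1.5-fold in mRNA and 8 of 116 in footprints. No share of all genes off these chromosomes is given, so these counts are not read as a result about the members.

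The members followed the chromosomes that set the strains apart. All 7 on chromosome VIII were lower in untreated deletion mRNA, by −1.52 to −0.96, and 9 of 10 on chromosome II were higher, with a median of 0.34. Of the 116 on the other 14 chromosomes, RPL41A and RPL41B not counted, 108 were lower untreated (median −0.27), but 89 were higher with DTT (median 0.12) and 94 were higher with Tm (median 0.16). RPL8A, on chromosome VIII, was at 2875, 443 and 2238 RPKM of mRNA in WT (untreated, DTT, Tm) and at 1000.2, 413 and 1124 RPKM in the deletion strain.

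Some of the largest strain differences lay elsewhere. RPS9A, on chromosome XVI, had 2968, 1440.1 and 1734 RPKM of mRNA in WT (untreated, DTT, Tm) and 252, 204 and 247 RPKM in the deletion strain. Its footprints were 2301, 1113 and 1515 RPKM in WT and 94.0, 69.7 and 92.9 RPKM in the deletion strain. Every WT value was thus several times above every deletion value, and the untreated difference was −3.55 in mRNA and −4.60 in footprints. RPL7B, also on chromosome XVI, was at 628, 155 and 468 RPKM of mRNA in WT and at 173, 129 and 181 RPKM in the deletion strain (−1.86 untreated). RPS22B (YLR367W), on chromosome XII, and RPS14B (YJL191W), on chromosome X, whose transcripts are subject to feedback or to decay through their introns, were lower by −1.71 and −1.48.

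The B copies of RPS22 and RPS14 and the A copy of RPS9 thus gave up ground to their partners in the deletion strain. The A to B ratio of RPS22 mRNA was 1.70, 2.24 and 1.58 in WT (untreated, DTT, Tm) and 2.87, 2.53 and 2.78 in the deletion strain. For RPS14 it was 1.72, 1.80 and 1.94 against 3.05, 2.59 and 2.91, and for RPS9 −3.22, −3.05 and −3.58 against −6.52, −6.12 and −6.57. The strains did not overlap in these 3 pairs, which were picked for large strain differences. How many other pairs also separate the strains was not counted. In RPL7 the ratio was 3.04, 3.86 and 3.06 in WT and 4.75, 4.46 and 4.71 in the deletion strain, so it was higher with DTT than untreated in WT and not in the deletion strain. None of these copies was called between depleted and retained cells in the auxin experiment.

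**Figure D5:**
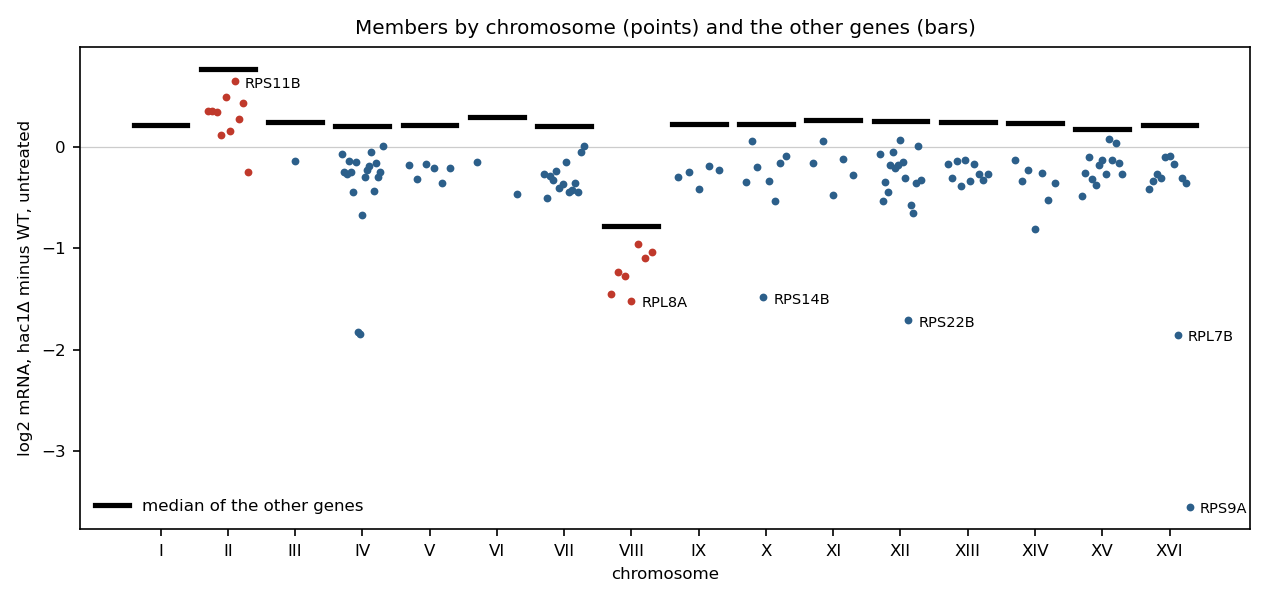
Points are ribosomal protein genes, placed by chromosome, with the log2 difference of untreated mRNA between the HAC1 deletion strain and WT on the vertical axis, in red on chromosomes II and VIII, and bars mark the median of all other genes on each chromosome. The bars stand at 0.76 on II and −0.79 on VIII, the 7 points on VIII lie between −1.52 and −0.96, and RPS9A on XVI is the lowest point at −3.55.

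Other parts of the translation machinery were followed in 8 lists, whose counts in mRNA stand beside 12% of all genes lower with Hac1 retained and 17.5% with it depleted, and 28.6% and 41.1% higher. The shares that fell with Hac1 retained were close to that of all genes in several lists. Of 47 ribosome biogenesis factors 6 fell in mRNA with Hac1 retained (median −0.38) and 34 with it depleted (median −0.58), with NSR1, a nucleolar protein of rRNA processing, at −1.08 and −1.19. The difference between the responses was called in 0 of the 47 by limma, with 3 at an unadjusted p under 0.05. Of 14 elongation and termination factors 4 and 5 fell, among them YEF3, elongation factor 3 of fungi (−0.74 and −0.50), while its little used paralog HEF3 rose by 1.53 and 1.46. Of 21 initiation factors 2 and 7 fell, CDC33, the cap-binding protein, being at −0.49 (adjusted p = 0.092) and −0.99. ASC1, which sits on the head of the small subunit, fell by 1.29 and 1.40, and was the lowest of the 6 ribosome-associated proteins, of which 2 and 4 fell.

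Of 7 chaperones of the nascent chain 1 and 3 fell, with SSB1, the ribosome-bound Hsp70, at −0.75 and −0.64. Of 9 dedicated chaperones of ribosomal proteins 0 fell with Hac1 retained (1 had an unadjusted p under 0.05) and 5 with it depleted, where BCP1 and RRB1, the escorts of RPL23 and RPL3, were at −1.07 and −0.82. Of 8 RNA polymerase I genes 2 and 3 fell, with RPA34 at −0.75 and −1.01. Of the 15 regulators of ribosomal protein genes 0 and 1 fell, with 6 at an unadjusted p under 0.05 in either direction with Hac1 retained, and 2 and 5 rose. STB3 and DOT6, repressors of ribosomal protein and ribosome biogenesis genes, rose by 1.20 and 1.27 and by 0.76 and 0.94, and RAP1, the activator, was at −0.46 (adjusted p = 0.062) with Hac1 retained and fell by 0.38 (adjusted p = 0.041) with it depleted.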

How the data were processed

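mRNA and ribosome footprints were measured in 34 libraries. The authors deposited 1 table per experiment: RPKM, per the file headers, for the deletion experiment, and values with no named unit for the auxin experiment, taken as RPKM from their range and sums. CASAVA, bcl2fastq 2.17 and Bowtie2 are named per the submitters' processing notes. No source used here gives the build, annotation, counting rule, strand or treatment of reads with several matches. No column was left unused (0). Of the identifiers 5994 matched the RefSeq table used for names and chromosomes. Reads per library were estimated from low values, which were steps of 1 read at a length shortened by 60 bases; no count model was fitted. Intervals are standard errors, and the number of libraries limits them.

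Values were taken as log2(RPKM + 1), which understates changes of low genes. Auxin libraries were analysed for genes that averaged 5 RPKM or more, which were fitted with limma 3.58.1 (R 4.3.3) with trend, a term per group and one for the hour (4 residual degrees of freedom), for 5757 genes in mRNA, 5338 in footprints and 5329 in the ratio. P-values were adjusted by Benjamini-Hochberg over every gene tested, with a threshold of 0.05. Changes are given as log2 ± standard error, with n = 2 libraries per group (n = 1 where no-TIR cells had auxin alone). The labelled hour pairs the groups: deviations from the group means correlated at −0.09 to 0.61 in mRNA and 0.02 to 0.77 in footprints over 10 pairs of groups, and since the hour is a labelled time it was kept in the model. The deletion experiment has no replicates and was described by differences past 1.5-fold. Paralog ratios were log2 A minus log2 B, fitted in the same way together with all genes. The fitting was tested on simulated data. Other tools were Python 3.11.15, pandas 2.3.3 and matplotlib 3.10.9.

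The members, the 8 comparison lists and the tests were chosen with earlier results of these data known. Named members were the 4 lowest and 4 highest in each contrast, the pairs with the largest and smallest shifts, the extremes of level, and a set of members with special roles. No promoter or protein sequence was used. Alternatives were another pseudocount, no filter on low values, median-ratio scaling, no trend, no hour term, a fold of 2 and leaving out each library.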

Additional observations from a re-analysis of the deposited data

Results flagged for a closer look

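The median difference of the list with Tm had opposite signs in the 2 strains of the deletion experiment in mRNA and in the ratio, and the same sign in footprints. In WT cells the median log2 difference of the members between Tm and untreated was −0.38 in mRNA, and in cells with HAC1 deleted it was 0.05, against 0.04 for all genes. In footprints the medians were −0.33 and −0.15. The median of the ratio of footprints to mRNA was 0.05 in WT and −0.18 in the deletion strain. Each value compares 1 library with 1 library, so the difference between the strains was not tested, and the strains also differ over the genes of 2 chromosomes, whose part in these values was not tested.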

How the results depend on the processing

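In the auxin experiment the counts of members that fell with DTT in mRNA and footprints stayed within 1.5 times their value under each alternative run. Leaving out 1 library at a time gave 112 to 129 members lower in mRNA and 117 to 131 in footprints with Hac1 retained, and 116 to 130 and 125 to 132 with it depleted. Leaving out the lone no-TIR library with auxin alone removes the retained response, which then has no value. In the ratio the count ran from 2 to 3 with Hac1 retained and from 2 to 41 with it depleted. With Hac1 depleted the ratio count was 14 without trend, 16 with median-ratio scaling and 15 without a filter. Without the replicate block (the hour term) 125 and 122 members were called in mRNA with Hac1 retained and depleted and 27 in the ratio with Hac1 depleted, depleted against retained cells had 0 calls in footprints, and 2 paralog pairs shifted with Hac1 retained.

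Depleted against retained cells under DTT gave 0 to 2 calls in mRNA, 0 to 4 in footprints and 0 to 13 in the ratio with 1 library left out. The 13 came without the no-TIR library with auxin and DTT at 2 h. Auxin against vehicle gave 0 to 3 in TIR cells and 0 to 0 in no-TIR cells, and 1 in TIR cells with a pseudocount of 5. Groups without DTT gave 0 to 0, and the difference of the responses 0 to 2. For 2 h against 1 h the ranges were 0 to 6 in mRNA, 0 to 49 in footprints and 0 to 0 in the ratio. The mRNA count was 0 without a filter, 4 with a pseudocount of 5 and 6 in the DTT groups alone, where footprints gave 50. Paralog pairs gave 3 to 6 with Hac1 retained, 7 to 23 depleted, 0 to 1 for depleted against retained and 0 to 6 for the hour, where no trend gave 2 and no filter 0.

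In the deletion experiment a fold of 2 in place of 1.5 gave 83 members in mRNA, 87 in footprints and 1 in the ratio for WT with DTT, 2, 0 and 0 for WT with Tm, 5 in mRNA and 5 in footprints for the deletion strain with DTT, and 7 in footprints and 1 in the ratio between untreated strains. Median-ratio scaling gave 56 in mRNA and 12 in footprints for WT with Tm, 2 in the ratio for the deletion strain with Tm, and 36 in mRNA between untreated strains. No share of all genes is given beside these scaled counts. Members off chromosomes II and VIII gave 9 in mRNA and 8 in footprints, also with no share of all genes beside them. RPL41B reversed without the depleted DTT library of 2 h, from 0.37 to −2.20 with DTT in depleted cells and from 0.40 to −2.17 against retained cells, and was 2.94 and 2.96 without that of 1 h. The causes of these shifts were not tested. The DTT-only groups, members off 2 chromosomes and summed copies were added after the data had been seen. Among single members, leaving out 1 library ended 206 calls, added 40 and reversed 2, and 4138 stayed. Depth limits RPL41A and RPL41B most, which had few reads.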
